A study of Rattus norvegicus with 12 samples.

Results

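The genes described here are 49 cell cycle and mitosis genes, listed by name from the G1 cyclins through DNA replication to chromosome segregation. Of the 49, 35 had a probe that could be named in the array files. A total of 33 were called present or marginal on both arrays of at least 1 group and were tested, among 11970 genes and unnamed probes in all. Of these 33, 31 met that detection rule in every group, and the other two, Mcm3 and Mcm6, did not. Probes for Kif11 and Aurka were above background in no group. Ccnb1, Ccnd1, Ccnd2, Cdk4, Mad2l1, Tyms, Tk1, Mcm4, Mcm5, Kif20a, Nusap1, Tpx2, Ttk and Hmgb2 were not analysed here.

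Expression was measured on 12 one-colour Agilent arrays in terminal end buds, the club-shaped growing tips of the ducts of the immature mammary gland. The buds were cut by laser microdissection from frozen sections of the abdominal glands of female rats of an inbred Sprague-Dawley line. Newborn pups had been injected once under the skin with diethylstilbestrol (DES), a synthetic estrogen, dissolved in sesame oil, or with sesame oil alone. There were 6 groups of 2 animals and 2 arrays, 1 array an animal: oil alone, 1 µg DES and 100 µg DES, each at 49 and at 35 days of age. Every level below is a probe's signal divided by the median signal of its array, and differences are on the log2 scale with their standard error. With 2 arrays a group, the number of arrays limits the precision.

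Cells divide by copying their DNA in S phase and then separating the copies in mitosis. MCM proteins are loaded on origins of replication as a helicase, and PCNA is the clamp that holds the polymerase at the fork. Cyclin B with CDK1, PLK1 and Aurora kinases drives entry into mitosis, and the anaphase-promoting complex, with UBE2C as a ubiquitin-conjugating enzyme, ends it. Transcripts of the mitotic genes accumulate late in the cycle and those of the licensing genes earlier. In pieces of tissue such as these, fewer cells of a type and less RNA per cell cannot be told apart. Terminal end buds are among the most proliferative structures of the rodent mammary gland in puberty.

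Both oil arrays at 49 days stood apart from the other 10. Their median signals were 16.4 and 15.3, against 23.6 to 39 on the others. In units of the array median, the lowest signal they detected was 1.04 and 1.03, where the others reached down to between 0.214 and 0.368. Each comparison that uses them carries this difference. Epithelial markers were present on all arrays, with the luminal keratin gene Krt19 at 399 to 829 and the basal keratin gene Krt14 at 72.8 to 109, while Krt5 was detected in 3 of 6 groups. Markers of other cell types were present as well, and their summed levels are given beside the results they move with. A sum follows its strongest markers, such as Col1a2 for fibroblasts and Krt19 and Epcam for luminal epithelium. Weaker markers of a list can move otherwise. Scan days were known for the other 10 arrays, 5 days in all, each holding 2 arrays of different groups. No spot of a tested member was saturated or an outlier among the 330 looked at.

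The plot of members by array shows the 31 members detected in every group.

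**Figure D1:**
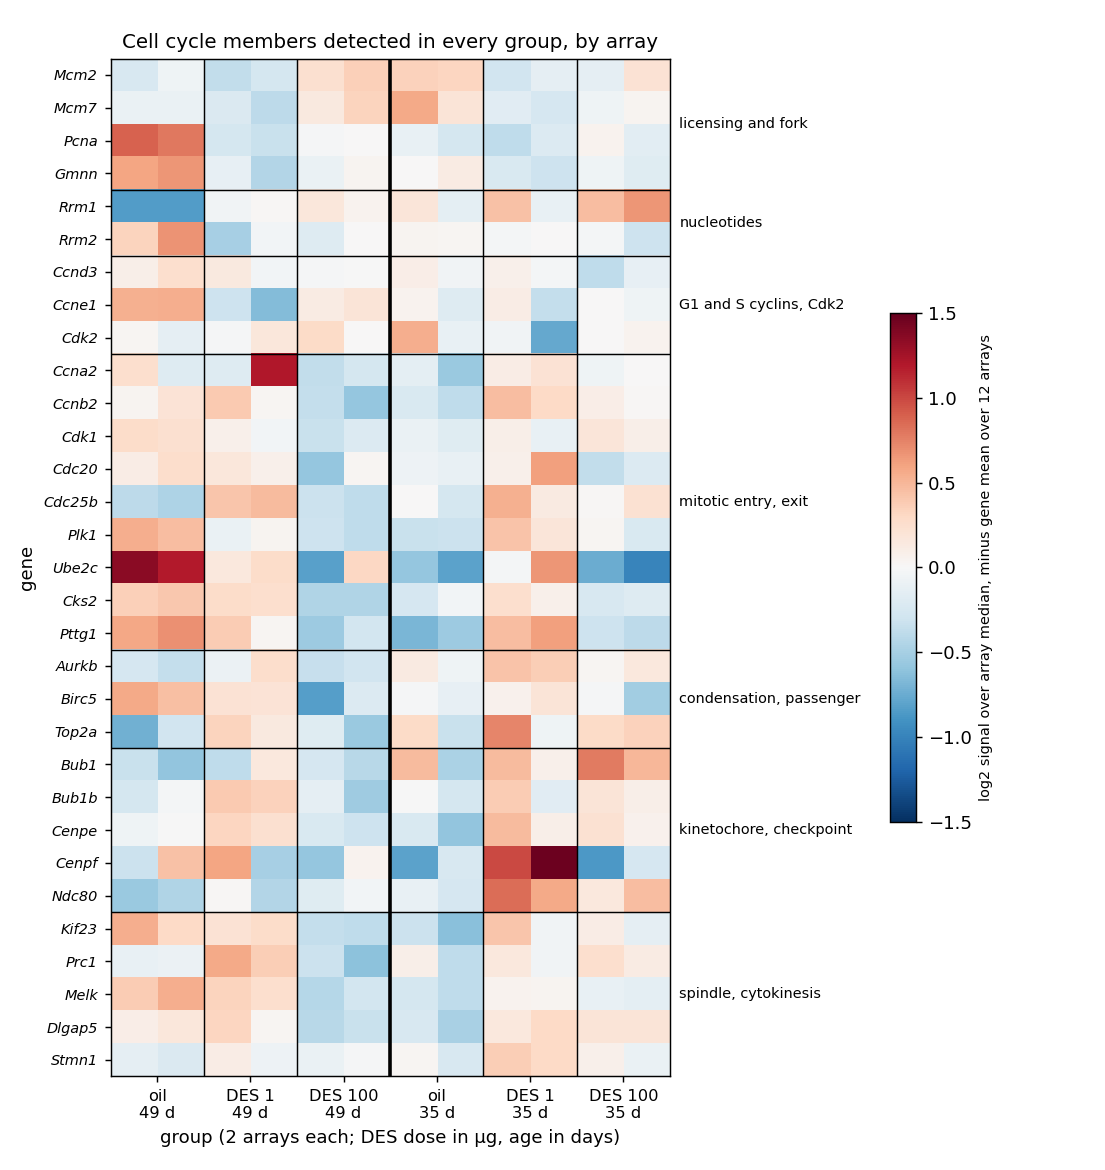
Each row is a member and each column an array, with the 2 arrays of a group side by side; colour gives the log2 signal over the array median minus the gene's mean over the 12 arrays. Pttg1, Ccnb2, Plk1 and Cenpe are above their mean in the DES 1 µg arrays and below it in the oil arrays at 35 days, and Mcm2 and Mcm7 run the other way there.

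DES 1 µg and oil were first compared at 35 days. Mitotic genes were higher in DES 1 µg buds, and a replication licensing gene was lower. Of the 33 members, 6 rose and 1 fell (limma, Benjamini-Hochberg adjusted p under 0.05), where 7.43% of all features passed, 3.17% higher and 4.25% lower. The median difference of the members was 0.32, beside -0.03 over all features. All 6 that rose act in mitosis: Pttg1, Ndc80, Cenpe, Ccnb2, Plk1 and Dlgap5. The tested mitosis genes, those of mitotic entry and exit, the kinetochore, chromosome condensation and the spindle, number 22. All 22 had positive differences, from 0.14 to 1.75 with a median of 0.45. All 4 replication members detected in every group, Mcm2, Mcm7, Pcna and Gmnn, had negative ones. Tested replication genes outside the members went both ways between these groups, and none passed. Orc3 was at 3.79 and 4.47, against 3.47 and 2.66 in oil buds, and Pold1 at 24.4 and 25.9, against 29.1 and 33.7.

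Pttg1 encodes securin, which holds separase inactive until anaphase. It stood at 173 and 192 in DES 1 µg buds, against 78.2 and 86.1 in oil buds, so that both DES arrays lay above both oil arrays. The difference was 1.15 ± 0.15, or 2.22-fold (n = 2 arrays a group, limma adjusted p = 0.0038). It was the only one of the 7 calls that held with each array left out in turn (adjusted p = 0.016 to 0.035).

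Ccnb2, a B-type cyclin that pairs with CDK1, had 23.2 and 20.7 in DES 1 µg buds, against 14.4 and 12.9 in oil buds. The difference was 0.68 ± 0.16 (limma adjusted p = 0.037). Plk1, the kinase that drives mitotic entry and centrosome maturation, had 52.3 and 44.0, against 30.8 and 31.1 in oil buds (0.63 ± 0.13, limma adjusted p = 0.026). Neither gene's groups overlapped. Ube2c was at 43.8 and 70.3, against 29.9 and 25.6 in oil buds, but the DES 1 µg arrays were far apart and the difference of 1.00 ± 0.35 did not pass (limma adjusted p = 0.13). Cdk1, the mitotic kinase itself, was at 132 and 115, against 116 and 109 in oil buds. Its groups overlapped (0.14 ± 0.12, limma adjusted p = 0.52).

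Of the 5 measured kinetochore and checkpoint genes, 2 rose. Ndc80, which binds the microtubule end to the kinetochore, was at 3.67 and 3.04 in DES 1 µg buds and at 1.90 and 1.72 in oil buds (0.88 ± 0.18, limma adjusted p = 0.026). Cenpe, a kinesin that moves chromosomes to the spindle equator, was at 34.6 and 26.3, against 21.2 and 16.5 in oil buds (0.69 ± 0.17, limma adjusted p = 0.044). Cenpf, a large kinetochore protein of late G2 and mitosis, had 37.2 and 52.0, against 10.8 and 15.9. That was the widest gap of any member, yet its standard error was large and it fell just short of the threshold (1.75 ± 0.44, limma adjusted p = 0.051). A second Cenpf probe, detected in 5 groups, gave 1.71. The checkpoint kinase genes Bub1 and Bub1b had smaller differences, 0.28 ± 0.31 and 0.25 ± 0.21, with overlapping groups (limma adjusted p = 0.64 and 0.52).

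Among spindle genes, Dlgap5, which stabilises kinetochore fibres, had 20.1 and 22.3 in DES 1 µg buds, against 15.3 and 12.9 in oil buds (0.59 ± 0.14, limma adjusted p = 0.039). The other four spindle genes, Kif23, Prc1, Melk and Stmn1, had differences of 0.66, 0.20, 0.37 and 0.45 and did not pass. Top2a, the topoisomerase that untangles chromatids, had 19.7 and 11.3, against 14.5 and 9.42 in oil buds. These overlapped, and the difference was 0.35 ± 0.30 (limma adjusted p = 0.53).

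Mcm7, a subunit of the replicative helicase, moved the other way. It stood at 13.7 and 13.0 in DES 1 µg buds, against 22.9 and 17.7 in oil buds, with no overlap (-0.59 ± 0.15, limma adjusted p = 0.047). A second Mcm7 probe gave -0.88. Mcm2, of the same helicase, had 6.05 and 6.70 in DES 1 µg buds, against 9.35 and 9.18 in oil buds; its difference of -0.54 ± 0.14 did not pass (limma adjusted p = 0.059). Pcna overlapped between the groups, at 134 and 151 in DES 1 µg buds and 162 and 145 in oil buds (-0.11 ± 0.12).

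**Figure D2:**
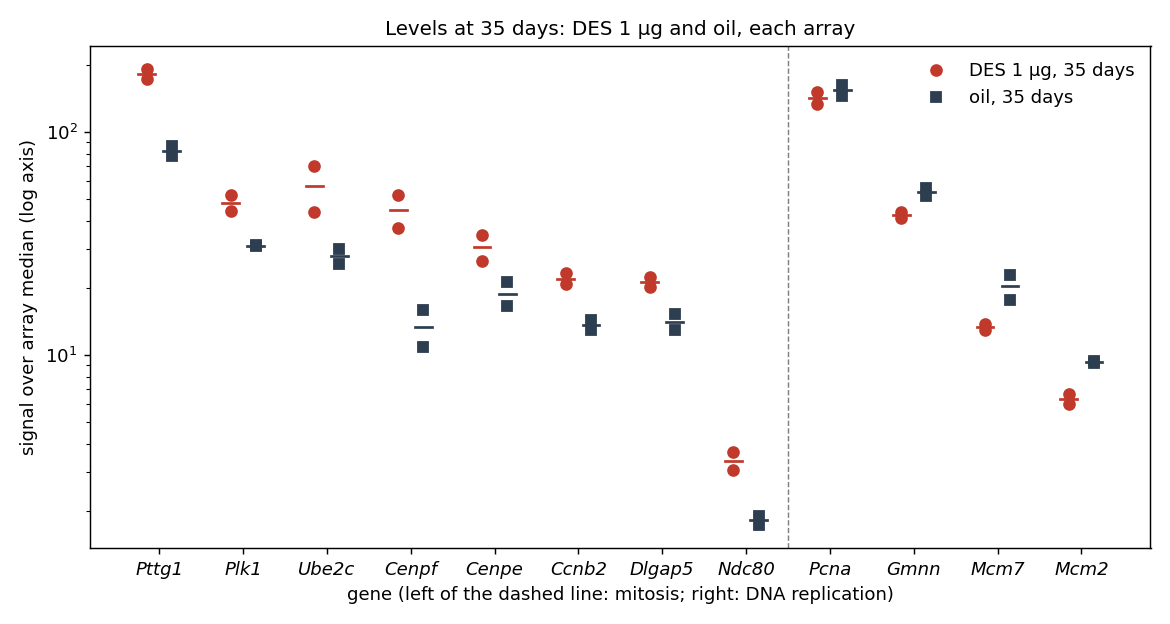
Signal over array median on a log axis, for each of the 2 DES 1 µg arrays (circles) and the 2 oil arrays (squares) at 35 days, with a bar at each group's mean. The DES 1 µg arrays lie above the oil arrays for the 8 mitosis genes left of the dashed line, and below them for Gmnn, Mcm7 and Mcm2.

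On the 1 scan day that held an array of each group, the difference was 1.14 for Pttg1 and -0.74 for Mcm7; as the groups of the 7 called members do not overlap, any such pair has the sign of the whole. The 6 calls other than that of Pttg1 did not withstand the loss of an array. Ccnb2, Ndc80 and Dlgap5 lost it without any one of the 4 arrays (adjusted p up to 0.15, 0.11 and 0.19), Plk1 and Cenpe without either oil array or the first DES 1 µg array (up to 0.12 and 0.18), and Mcm7 without the first oil array or either DES 1 µg array (up to 0.23). Limma called none of the 33 when fitted on these 2 groups alone (12 at an unadjusted p under 0.05) or with scan day as a block (8). Of all 11970 features, the fit on these groups alone called 69 higher and 85 lower, and the scan day block called 0. With 1 array left out, 20 to 22 of the 22 mitosis genes were positive, with medians from 0.37 to 0.64, and the 20 came without the second oil array or the first DES 1 µg array.

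Markers of other cell types also differed between these groups. Summed over 5 measured markers each, endothelium stood at 76.9 and 79.8 in DES 1 µg buds, against 41.5 and 45.3 in oil buds, adipocytes at 562 and 617, against 313 and 315, and fibroblasts at 1410 and 1300, against 731 and 796. The 4 measured luminal markers summed to 1070 and 1090 in DES 1 µg buds, against 1760 and 1630 in oil buds. Of the 5 endothelial and the 5 adipocyte markers, 4 each were called higher. Their part in the cell cycle differences was not tested.

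Promoters are shown for 3 mitosis genes that rose at 35 days, for Mcm7, the licensing gene that fell, and for Mcm2 of the same helicase, which did not pass. RefSeq promoters (GRCr8, from 250 bases before to 50 after the start of the gene) matched 41 of the 49 members and 29 of the 33 tested. The letters of 3 motifs were searched on both strands: the CCAAT box (CCAAT), the cell cycle homology region or CHR (TTTGAA or TTCGAA), and the E2F core (written TTCCCGC and also TTCGCGC and also TTGCCGC and also TTGGCGC). Matches are in capitals, and adjoining capitals can belong to overlapping matches.
Pttg1 (chr10:28406277-28406576, minus strand): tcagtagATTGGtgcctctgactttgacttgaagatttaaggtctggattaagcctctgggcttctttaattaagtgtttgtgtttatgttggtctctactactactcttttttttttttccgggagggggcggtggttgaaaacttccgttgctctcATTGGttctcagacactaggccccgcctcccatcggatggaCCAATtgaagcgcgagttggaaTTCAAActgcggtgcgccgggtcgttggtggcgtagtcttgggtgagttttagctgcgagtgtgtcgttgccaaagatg
Ccnb2 (chr8:79981609-79981908, minus strand): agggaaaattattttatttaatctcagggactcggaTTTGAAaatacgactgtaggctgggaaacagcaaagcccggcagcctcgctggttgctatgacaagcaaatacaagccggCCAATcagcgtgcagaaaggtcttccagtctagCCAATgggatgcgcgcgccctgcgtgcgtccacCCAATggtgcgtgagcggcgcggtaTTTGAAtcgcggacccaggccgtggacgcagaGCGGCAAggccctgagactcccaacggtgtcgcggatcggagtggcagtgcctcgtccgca
Plk1 (chr1:186147408-186147707, plus strand): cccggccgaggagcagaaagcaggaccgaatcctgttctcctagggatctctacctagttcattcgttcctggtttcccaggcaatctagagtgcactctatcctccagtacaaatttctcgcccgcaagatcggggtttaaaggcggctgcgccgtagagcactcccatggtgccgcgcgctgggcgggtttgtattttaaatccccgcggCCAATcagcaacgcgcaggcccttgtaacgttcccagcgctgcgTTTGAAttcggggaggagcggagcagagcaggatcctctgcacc
Mcm7 (chr12:22163129-22163428, minus strand): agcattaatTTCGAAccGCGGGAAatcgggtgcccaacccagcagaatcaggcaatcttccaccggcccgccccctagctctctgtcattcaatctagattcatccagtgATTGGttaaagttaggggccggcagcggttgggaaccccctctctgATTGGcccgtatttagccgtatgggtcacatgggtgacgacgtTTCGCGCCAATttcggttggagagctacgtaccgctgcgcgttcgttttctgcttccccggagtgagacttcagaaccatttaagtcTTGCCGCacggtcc
Mcm2 (chr4:122918045-122918344, minus strand): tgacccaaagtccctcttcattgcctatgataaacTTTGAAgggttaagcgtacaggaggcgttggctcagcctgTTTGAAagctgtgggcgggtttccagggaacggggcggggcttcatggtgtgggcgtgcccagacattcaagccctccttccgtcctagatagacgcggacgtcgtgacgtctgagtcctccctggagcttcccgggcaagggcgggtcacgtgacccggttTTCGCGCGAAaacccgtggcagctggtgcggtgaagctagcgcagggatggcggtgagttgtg

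Pttg1, Ccnb2 and Plk1 each hold CCAAT boxes and CHR letters within this window, and Mcm7 and Mcm2 hold E2F cores as TTCGCGC. Cenpe, Ndc80 and Dlgap5, the other members that rose in the same comparison, do not hold both a CCAAT box and a CHR. Cenpe holds only a CCAAT box, Ndc80 only a CHR, and Dlgap5 a CCAAT box and an E2F core. The kinds are not exclusive: Mcm7 also holds CCAAT boxes and a CHR, Mcm2 holds CHR letters, and Ccnb2 holds an E2F core. Of the 19 tested mitosis genes with a promoter, 12 held both a CCAAT box and a CHR (63.2%), against 5.69% of the 5942 tested genes with a promoter and 7.95% of all 33469 promoters. An E2F core was found in 5 of the 6 licensing and fork genes and in 5 of the 19 mitosis genes, against 17.0% of tested genes and 9.52% of all promoters. These are matches of letters, not sites shown to be bound in these buds.

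The higher dose was compared next at 35 days. No member passed between DES 100 µg and oil, where 1.37% of all features did, 0.443% higher and 0.927% lower (limma, 8 members at an unadjusted p under 0.05, 7 of them higher). The median difference was 0.13, beside 0.02 over all features. Of the 22 mitosis genes, 17 were positive, from -0.20 to 0.64. Dlgap5 came nearest, at 20.7 on both DES 100 µg arrays against 15.3 and 12.9 in oil buds (0.56 ± 0.14, limma adjusted p = 0.12). Pttg1 was at 101 and 95.5, against 78.2 and 86.1 in oil buds (0.26 ± 0.15), without overlap.

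Of the 6 licensing and fork genes 5 were negative at this dose, with a median of -0.24, and none passed. The 5 include Mcm6, which was not above background in either of these groups. Of the 4 detected in every group, Mcm2, Mcm7 and Gmnn were negative and Pcna was positive (0.13 ± 0.12). Mcm7 was at 14.8 and 15.9 in DES 100 µg buds, against 22.9 and 17.7 in oil buds (-0.39 ± 0.15, limma adjusted p = 0.34), and a second probe gave -0.09. Cdk1 was at 141 and 132 in DES 100 µg buds, against 116 and 109 in oil buds (0.28 ± 0.12, limma adjusted p = 0.4). Mcm2 was at 6.68 and 8.57, against 9.35 and 9.18 (-0.29 ± 0.14). Pcna, at 181 and 156, against 162 and 145, and Top2a, at 14.4 and 15.1, against 14.5 and 9.42, overlapped between the groups.

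Between the doses at 35 days, 2 of 33 members passed, and both were lower under the higher dose, beside 8.06% of all features, 4.17% higher and 3.89% lower. That share, 6.06%, is no higher than the background. Cenpf was at 10.3 and 15.8 with DES 100 µg, against 37.2 and 52.0 with DES 1 µg (-1.79 ± 0.44, limma adjusted p = 0.045). Pttg1 was at 101 and 95.5, against 173 and 192 (-0.89 ± 0.15, limma adjusted p = 0.01). Neither gene's groups overlapped, which fixes the sign of any 1 array against another, and on the one day when arrays of both were scanned the Cenpf difference was -1.72. Cenpf lost its call without any one of the 4 arrays (adjusted p up to 0.23), and Pttg1 without either DES 100 µg array or the second DES 1 µg array (up to 0.075). None of Cdk1, Mcm2, Pcna and Top2a passed, with differences of 0.15, 0.25, 0.24 and -0.01. The endothelial markers summed to 38.3 and 34.1 with DES 100 µg, against 76.9 and 79.8 with DES 1 µg, and the adipocyte markers to 319 and 307, against 562 and 617. Fibroblast markers summed to 538 and 668 with DES 100 µg, against 1410 and 1300 with DES 1 µg, and luminal markers to 1630 and 1470, against 1070 and 1090. Their part in these differences was not tested.

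At 49 days the difference between the doses does not use the levels of the oil arrays, though the spread in the fit includes them. Here 1 of 33 members rose and 5 fell with DES 100 µg relative to DES 1 µg, where 6.88% of all features passed, 3.65% higher and 3.22% lower. The median difference of the members was -0.40, beside 0.02 over all features. The 5 that fell act in mitosis, and of the 22 mitosis genes 21 were negative. The 1 that rose was Mcm2, and all 4 replication members detected in every group were positive. These 4 arrays are other animals than those compared at 35 days between DES 1 µg and oil, where all 22 mitosis genes were positive and the 4 negative. The contrasts are unlike, so neither repeats the other. Between DES 1 µg and oil at 49 days, 12 of the 22 were positive and 10 negative.

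Cks2, which binds CDK complexes and is needed for chromosome segregation, had the smallest p. It was at 50.5 and 50.2 with DES 100 µg, against 83.5 and 81.8 with DES 1 µg (-0.71 ± 0.11, 1.64-fold lower, n = 2 arrays a group, limma adjusted p = 0.0096). Prc1, which bundles the central spindle for cytokinesis, was at 11.8 and 9.64, against 21.9 and 19.1 (-0.94 ± 0.18, limma adjusted p = 0.022). Cdc25b, the phosphatase that activates CDK1 at mitotic entry, was at 2.20 and 2.10, against 3.66 and 3.82 (-0.80 ± 0.16, limma adjusted p = 0.026). All 3 had tight pairs that lay well apart.

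Ccnb2 was at 13.1 and 11.3 with DES 100 µg, against 22.2 and 17.2 with DES 1 µg (-0.69 ± 0.16, limma adjusted p = 0.039). It passed here and, with the opposite sign, between DES 1 µg and oil at 35 days. Melk, a kinase whose transcript peaks in mitosis, was at 6.75 and 7.47, against 11.4 and 10.8 (-0.64 ± 0.11, limma adjusted p = 0.014), and a second probe of it gave -0.37. Mcm2 was at 8.71 and 9.45, against 5.68 and 6.15 (0.62 ± 0.14, limma adjusted p = 0.042). Mcm7 was at 17.1 and 19.4, against 13.3 and 11.8, and did not pass (0.54 ± 0.15, limma adjusted p = 0.065). Pcna, at 173 and 175, against 145 and 138, did not pass either (0.30 ± 0.12, limma adjusted p = 0.18).

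**Figure D3:**
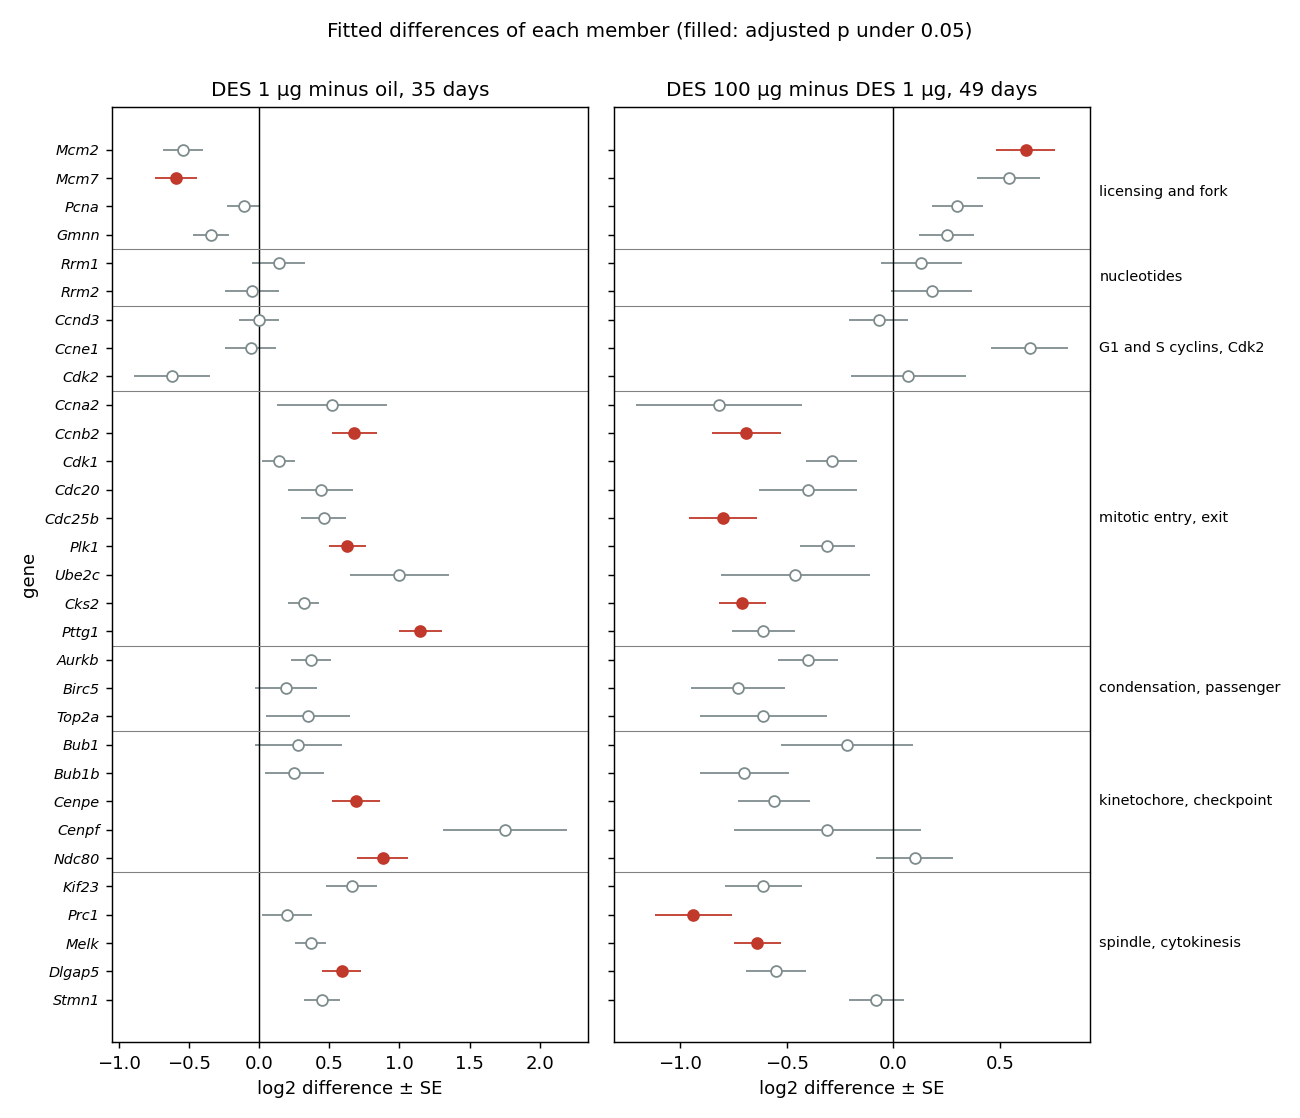
Fitted log2 difference of each member detected in every group, with its standard error, by role; filled points passed. On the left, DES 1 µg minus oil at 35 days, all 22 mitosis genes lie right of 0 and the 4 licensing and fork genes left of it; on the right, DES 100 µg minus DES 1 µg at 49 days, 21 of the 22 lie left of 0 and the 4 lie right of it.

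The remaining members of mitosis did not pass one by one. Pttg1 was at 85.8 and 104 with DES 100 µg, against 163 and 128 with DES 1 µg (-0.61 ± 0.15, limma adjusted p = 0.052). Cdk1 was at 98.1 and 108, against 131 and 121, without overlap (-0.29 ± 0.12, limma adjusted p = 0.19). Top2a was at 10.4 and 8.06, against 14.9 and 13.1 (-0.61 ± 0.30, limma adjusted p = 0.28). Ndc80 alone was positive, at 1.81 and 2.00, against 2.07 and 1.51 (0.10 ± 0.18), with overlapping groups.

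On the 1 scan day with an array of each dose, the difference was -0.99 for Prc1 and 0.62 for Mcm2, with signs that the absence of overlap had fixed. None of the 6 calls held through every loss of 1 array: Cdc25b and Mcm2 lost it without any of the 4 (adjusted p up to 0.13 and 0.21), Prc1 and Cks2 without either DES 1 µg array or the second DES 100 µg array (up to 0.14 and 0.071), Melk without either DES 1 µg array or the first DES 100 µg array (up to 0.093), and Ccnb2 without either DES 100 µg array or the first DES 1 µg array (up to 0.21). With 1 array left out, 19 to 21 of the 22 mitosis genes were negative. With scan day as a block 18 were, and limma called none of the 33 in that fit (13 at an unadjusted p under 0.05). Fitted on the arrays of these doses alone, limma called none of the 33 either. Of all 11970 features, that last fit called 56 higher and 48 lower, and the scan day block called 0. The endothelial markers summed to 38.5 and 49.8 with DES 100 µg, against 59.3 and 64.1 with DES 1 µg. Adipocyte markers summed to 478 and 579, against 707 and 679, and luminal markers to 1350 and 1320, against 1220 and 1150. Of the luminal markers, Epcam was lower, at 656 and 621, against 737 and 668, and the others were higher. The part of all these markers in the cell cycle differences was not tested.

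Comparisons with oil at 49 days rest on the 2 arrays that stood apart. With DES 1 µg, 4 of 33 members were called higher and 6 lower. One of the 4 was Mcm6, not above background in these oil buds, and over the 31 members detected in every group 3 were higher. That share, 30.3%, is close to the 31.8% of all features that passed (12.7% higher, 19.1% lower), so the count says nothing particular of the members. Under scaling to the median of probes detected on all arrays, 55% of the calls over all features were higher, against 40% under the main scaling. The members' median was -0.01, beside -0.09 over all features. Mitosis genes were split, 12 positive and 10 negative of 22, with a median of 0.07.

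Pcna stood at 145 and 138 in DES 1 µg buds, against 322 and 303 in oil buds at 49 days (-1.14 ± 0.12, limma adjusted p = 0.00096). Gmnn, geminin, which blocks a second licensing of origins, was at 47.0 and 37.7, against 76.8 and 81.0 (-0.91 ± 0.13, limma adjusted p = 0.0029). Ccne1, the cyclin of the G1 to S transition, was at 12.5 and 9.88, against 22.4 and 22.6 (-1.02 ± 0.18, limma adjusted p = 0.0058). None of the 3 overlapped, and each call held with any 1 array left out (adjusted p = 0.0053 to 0.037).

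Cdc25b rose, at 3.66 and 3.82 in DES 1 µg buds, against 2.09 and 1.99 in oil buds (0.87 ± 0.16, limma adjusted p = 0.0064). This call held too (adjusted p = 0.035 to 0.037). Ube2c fell, at 49.6 and 53.8, against 114 and 102 (-1.06 ± 0.35, limma adjusted p = 0.049). Rrm1, the large subunit of ribonucleotide reductase, and Prc1 rose by 0.82 and 0.58, while Rrm2 and Plk1 fell by 0.78 and 0.54. The calls of Ube2c, Rrm1, Prc1, Rrm2 and Plk1 were lost on leaving out at least 2 of the arrays in turn (adjusted p up to 0.19). Ube2c, Rrm1, Prc1 and Plk1 lost theirs without any of the 4, and Rrm2 without the second oil array or the first DES 1 µg array. Cdk1, at 131 and 121, against 150 and 147, Mcm2, at 5.68 and 6.15, against 6.22 and 7.06, and Top2a, at 14.9 and 13.1, against 7.20 and 9.74, did not pass. The 5 fibroblast markers, all called higher, summed to 1640 and 1240 in DES 1 µg buds, against 848 and 1010 in oil buds. Adipocyte markers summed to 707 and 679, against 398 and 382, and luminal markers to 1220 and 1150, against 1750 and 1590. Among the luminal markers Krt19 and Cldn3 were lower, Epcam overlapped and Cdh1 was higher. The part of all these markers in the cell cycle differences was not tested.

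With DES 100 µg at 49 days, many mitosis genes were lower than in oil buds. Of 33 members, 13 fell and 2 rose, 45.5% in all, beside 25.1% of all features, 14.3% lower and 10.8% higher. Under scaling to the median of probes detected on all arrays, 59.1% of the calls over all features were higher, against 43.2% under the main scaling. The members' median was -0.33, beside -0.07 over all features, and 17 of the 22 mitosis genes were negative.

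Ube2c had the widest gap, at 25.4 and 55.3 in DES 100 µg buds, against 114 and 102 in oil buds (-1.52 ± 0.35, 2.88-fold lower, limma adjusted p = 0.017). Its 2 DES 100 µg arrays differed from each other as well. Pttg1 was at 85.8 and 104, against 187 and 202 (-1.04 ± 0.15, limma adjusted p = 0.0038). Birc5, survivin of the chromosomal passenger complex, was at 16.2 and 24.9, against 42.5 and 39.2 (-1.02 ± 0.22, limma adjusted p = 0.014). Plk1 was at 31.5 and 29.9, against 57.0 and 53.7 (-0.85 ± 0.13, limma adjusted p = 0.0045). Cdk1 was at 98.1 and 108, against 150 and 147 (-0.53 ± 0.12, limma adjusted p = 0.015). In none of the 5 did the groups overlap.

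Pcna was at 173 and 175 in DES 100 µg buds, against 322 and 303 in oil buds (-0.84 ± 0.12, limma adjusted p = 0.0033). Rrm1 rose, at 15.5 and 14.2, against 7.68 and 7.71 (0.94 ± 0.19, limma adjusted p = 0.011), and its second probe gave 0.83. Melk, Cks2, Kif23, Gmnn, Rrm2, Ccnb2 and Dlgap5 fell by 0.82, 0.84, 0.79, 0.65, 0.60, 0.59 and 0.51, but a second Melk probe, detected in 5 groups, gave 0.05. Pcna, Pttg1, Plk1, Melk and Cks2 kept their call with each array left out (adjusted p = 0.0097 to 0.032). The other 10 lost it without at least 2 arrays (adjusted p up to 0.23): Ccnb2, Rrm2 and Dlgap5 without any of the 4, Cdk1, Ube2c and Gmnn without either oil array or the first DES 100 µg array, Kif23 without the first oil array or either DES 100 µg array, Birc5 and Rrm1 without the first oil or first DES 100 µg array, and Mcm6 without the second oil or first DES 100 µg array. Mcm2, at 8.71 and 9.45, against 6.22 and 7.06, narrowly missed (0.45 ± 0.14, limma adjusted p = 0.052), and Top2a, at 10.4 and 8.06, against 7.20 and 9.74, overlapped. Adipocyte markers summed to 478 and 579 in DES 100 µg buds, against 398 and 382 in oil buds. Luminal markers summed to 1350 and 1320, against 1750 and 1590, where Cdh1 was higher and the others lower. The part of all these markers in the differences was not tested.

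Mcm6, the second rise, is not a measured one. Its probe was at 0.452 and 0.304 in DES 100 µg buds and at 0.792 and 0.421 in DES 1 µg buds at 49 days, against 0.153 and 0.0542 in oil buds, where it was not above background and the lowest detected signal was about 1 array median. Mcm3 was likewise at 0.125 and 0.248 in those oil buds, and at 0.503 and 0.510 in oil buds at 35 days. No fold is given for either gene.

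**Figure D4:**
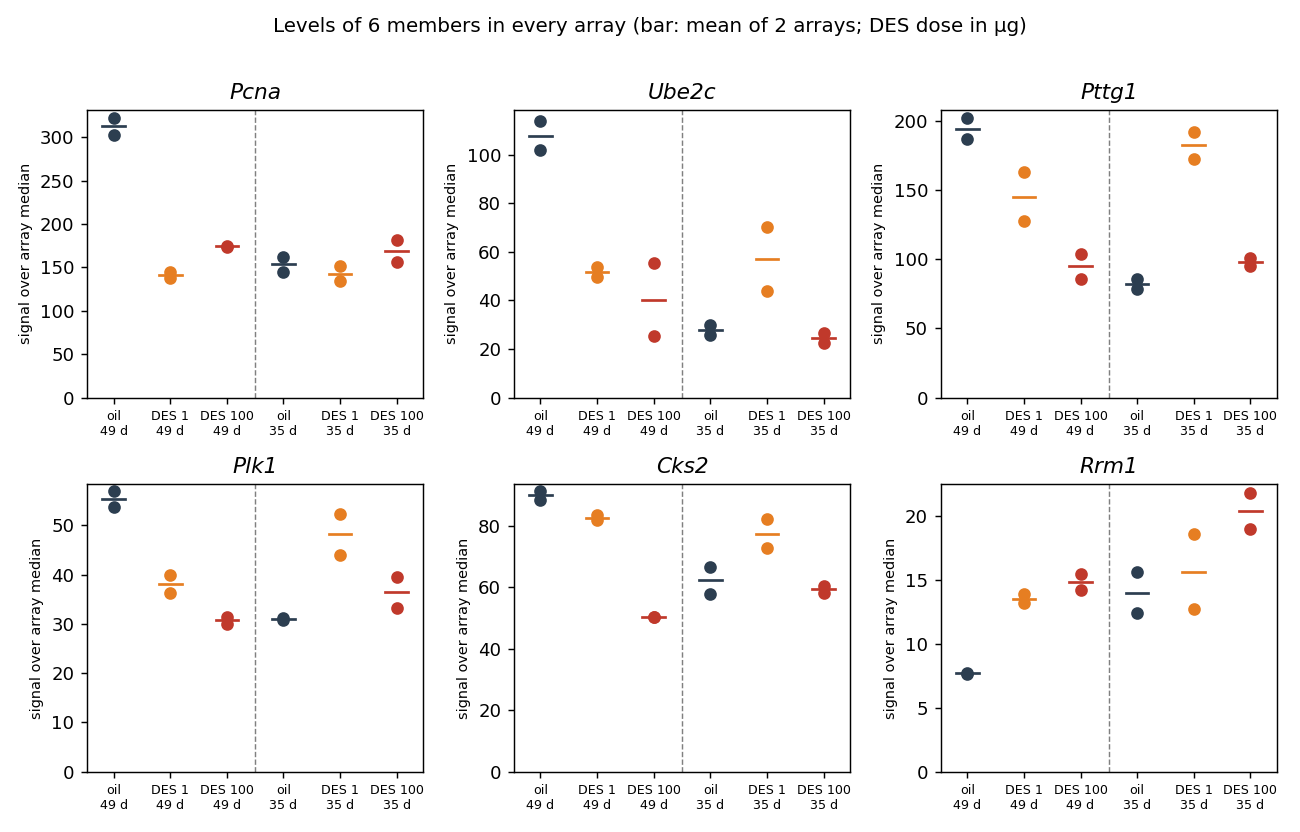
Signal over array median of 6 members in each of the 12 arrays, from 49 days (left of the dashed line) to 35 days, with oil, DES 1 µg and DES 100 µg in that order and a bar at each mean. Pcna and Ube2c are highest in the oil arrays at 49 days and Rrm1 is lowest there; Pttg1 is at 187 and 202 in those arrays and at 173 and 192 in the DES 1 µg arrays at 35 days; Cks2 is lowest in the DES 100 µg arrays at 49 days.

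Age was compared within each treatment. In oil buds, 11 of 33 members were higher at 49 than at 35 days and 5 were lower. Among the 5 were Mcm3, not above background at 49 days, and Mcm6, not above background at either age. Over the 31 members detected in every group 3 were lower. Of all features 41.5% passed, 27.7% higher and 13.8% lower, so a member's call here is common. All features had a median of 0.16, which the scalings to the 75th percentile and to commonly detected probes brought to 0.01 and -0.01, and the share of calls that were higher was then 49.9% and 47%, against 66.7%. The members' median was 0.37.

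Ube2c was at 114 and 102 in oil buds at 49 days, against 29.9 and 25.6 at 35 days (1.96 ± 0.35, 3.90-fold, limma adjusted p = 0.0041). Pttg1 was at 187 and 202, against 78.2 and 86.1 (1.24 ± 0.15, limma adjusted p = 0.0014). Pcna was at 322 and 303, against 162 and 145 (1.03 ± 0.12, limma adjusted p = 0.0013). Kif23, a motor of the central spindle, was at 37.5 and 31.7, against 20.6 and 16.7 (0.90 ± 0.18, limma adjusted p = 0.0069). All 4 calls, with those of Plk1 at 0.84 and Melk at 0.79, held with each array left out (adjusted p = 0.0067 to 0.049), though the second Melk probe gave -0.10.

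Ccne1, Gmnn, Cks2, Dlgap5 and Cdk1 rose by 0.60, 0.56, 0.53, 0.50 and 0.41 between these ages in oil. Cdk1's rise was -0.01 under quantile normalization. Rrm1 fell by 0.86, at 7.68 and 7.71 at 49 days, against 15.6 and 12.4 at 35 days, and Mcm2 and Mcm7 fell by 0.48 each. Cdk1 was at 150 and 147, against 116 and 109, and Mcm2 at 6.22 and 7.06, against 9.35 and 9.18. Top2a, at 7.20 and 9.74, against 14.5 and 9.42, overlapped and did not pass. Ccne1, Gmnn, Cks2, Dlgap5, Cdk1, Rrm1, Mcm2 and Mcm7 lost their call without at least 1 array (adjusted p up to 0.18): Ccne1, Cdk1 and Mcm2 without any of the 4, Rrm1 and Cks2 without the first oil array at 35 days, Gmnn without that one or the second at 49 days, Dlgap5 without any but the first at 35 days, and Mcm7 without any but the second at 35 days.

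In DES buds few members passed between the ages, as few features of any kind did. With DES 1 µg, 1 of 33 passed (3.03%), beside 4.19% of all features, 3.39% higher and 0.794% lower. It was Ndc80, at 2.07 and 1.51 at 49 days, against 3.67 and 3.04 at 35 days (-0.92 ± 0.18, limma adjusted p = 0.033). It lost the call without either array at 35 days or the second at 49 days (up to 0.15). With DES 100 µg, 1 of 33 passed (3.03%), beside 5.97% of all features, 4.44% higher and 1.54% lower. It was Dlgap5, at 13.5 and 14.3, against 20.7 and 20.7, a fall of 0.57 ± 0.14 just under the threshold (limma adjusted p = 0.05 as rounded, up to 0.19 without any 1 array). Cdk1 was at 98.1 and 108 at 49 days, against 141 and 132 at 35 days, with DES 100 µg and did not pass (-0.41 ± 0.12, limma adjusted p = 0.089). With DES 1 µg its ages overlapped, as did those of Mcm2, Pcna and Top2a. Of the 22 mitosis genes, 19 were negative with DES 100 µg and 12 with DES 1 µg. Over all features, 81% of the calls with DES 1 µg and 74.3% with DES 100 µg were higher at 49 days, and 61.3% and 56.8% after scaling to probes detected on all arrays.

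Markers of other cell types also differed between the ages. With DES 100 µg, fibroblast markers summed to 980 and 1060 at 49 days, against 538 and 668 at 35 days, and adipocyte markers to 478 and 579, against 319 and 307. Of the fibroblast markers, Col1a2 (863 and 968, against 427 and 571) and Pdgfra were higher, while Dcn, Lum and Fbln1 overlapped. Of the adipocyte markers, Adipoq overlapped and the others were higher. The 3 measured lymphocyte markers, all called higher, summed to 10.5 and 9.28, against 5.35 and 4.73. In oil buds adipocyte markers summed to 398 and 382 at 49 days, against 313 and 315 at 35 days. They did not move together: Cfd (208 and 186, against 101 and 123) and Cidec were higher, and Lpl overlapped. Adipoq (9.88 and 9.54, against 17.4 and 14.3) and Fabp4 (7.87 and 7.52, against 13.1 and 12.3) were lower. Lymphocyte markers in oil buds summed to 7.27 and 7.24, against 11.5 and 10.6, with Cd3d higher and Cd3g and Jchain lower. With DES 1 µg, endothelial markers summed to 59.3 and 64.1, against 76.9 and 79.8. Their part in the differences by age, and in the interactions, was not tested.

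Whether a DES effect differed between 49 and 35 days was tested as an interaction, which uses the oil arrays of both ages. For DES 1 µg, 7 of 33 passed (21.2%), beside 20.8% of all features (9.47% higher, 11.3% lower), so the share is that of the background. The only rise among the 7 was Mcm6, not above background in oil buds at either age or in DES 1 µg buds at 35 days. For DES 100 µg, 9 of 33 passed, all lower at 49 days, beside 9.85% of all features, 4.59% higher and 5.26% lower. The members' median change was -0.46, beside -0.07 over all features, and 21 of the 22 mitosis genes were negative (19 to 22 with 1 array left out). After scaling to probes detected on all arrays, 56.3% and 62.1% of the calls over all features were higher for the 2 doses, against 45.6% and 46.6%.

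The likeness of members over the 12 arrays was described by Pearson's r, with no test, since the arrays share their scaling and fall into groups. Bub1b and Prc1 reached 0.92, Ccnb2 and Dlgap5 0.90, Melk and Cks2 0.90, and Mcm2 and Mcm7 0.88. Mcm2 ran opposite to mitosis genes, at -0.86 with Ccnb2 and -0.83 with Cenpe, and at -0.88 and -0.89 without the oil arrays at 49 days. Pcna and Gmnn were at 0.91 over all arrays and at 0.5 without those 2.

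Other genes of the cell cycle were taken from a list of 123, of which 76 were tested. Between DES 1 µg and oil at 35 days 4 rose and 2 fell, 7.89% of the 76 beside 7.43% of all features, a background share. Cdkn1a, the inhibitor p21 of cyclin-dependent kinases, was at 2.95 and 3.08 in DES 1 µg buds, against 5.68 and 6.67 in oil buds (-1.03 ± 0.14, limma adjusted p = 0.0038), and at 5.75 and 7.02 with DES 100 µg. Aspm, a spindle pole gene, rose by 0.98 ± 0.15 (limma adjusted p = 0.0062), at 66.4 and 58.2, against 31.9 and 31.0. Espl1, separase, the target of securin, rose by 0.67 ± 0.12 (limma adjusted p = 0.012), and Cdca7 fell by 0.78 ± 0.13 (limma adjusted p = 0.01).

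Between DES 100 µg and oil at 35 days none of the 76 passed (limma, 8 at an unadjusted p under 0.05), and between the doses at that age 1 rose and 2 fell (3.95%, beside 8.06% of all features). The rise was Cdkn1a, by 1.08 ± 0.14 with DES 100 µg over DES 1 µg (limma adjusted p = 0.0025). Between the doses at 49 days 2 rose and 4 fell (7.89%, beside 6.88% of all features). Cdkn1c, the inhibitor p57, was at 31.5 and 26.2 with DES 100 µg, against 56.4 and 48.2 with DES 1 µg (-0.86 ± 0.17, limma adjusted p = 0.025). Fen1, the flap endonuclease of replication, rose by 0.67 ± 0.14 (limma adjusted p = 0.026), Cdca7 rose by 0.82 ± 0.13, and Kif2c, a kinesin that depolymerises microtubules, fell by 0.66 ± 0.13.

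Against oil at 49 days, 4 rose and 20 fell with DES 1 µg, and 5 rose and 19 fell with DES 100 µg. That is 31.6% of the 76 at either dose, beside 31.8% of all features with DES 1 µg and 25.1% with DES 100 µg. E2f8, an atypical member of the E2F family of transcription factors, was at 9.03 and 7.25 with DES 1 µg, against 19.5 and 18.2 in oil buds (-1.22 ± 0.17, limma adjusted p = 0.0021). In oil buds 24 were higher and 7 lower at 49 than at 35 days, 40.8% beside 41.5% of all features. With DES 1 µg none passed between the ages (limma, 12 at an unadjusted p under 0.05), beside 4.19% of all features, and with DES 100 µg 2 fell (2.63%, beside 5.97%).

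The authors' deposited tables of probes at least 2-fold apart, DES over oil, hold few members. For DES 1 µg at 35 days the authors' deposited table gives Cenpf at 3.38 and 3.29 for 2 probes, Pttg1 at 2.23 and Ube2c at 2.02. At 49 days the authors' deposited table for DES 1 µg gives Pcna at 0.453 and Ube2c at 0.481. The authors' deposited table for DES 100 µg at 49 days gives Ube2c at 0.348, Cenpf at 0.405 from its second probe and Pttg1 at 0.488. Those tables carry no test.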

How the data were processed

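RNA from laser-dissected terminal end buds was linearly amplified, labelled with Cy3 and hybridised to 1 Agilent array per animal, per the labels' protocols. The deposited values are processed signal intensities from Agilent Feature Extraction 9.1.3.1, per the submitters' processing notes, with detection calls. The authors also deposited group means as ratios, each signal over its array median and then over the mean of the oil arrays at 35 days. Of 71097 detected values, 99.97% lay within 0.05 log2 of the same ratio computed here. For the build behind the array annotation: not given in the sources used here.

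Signals were divided by the median of each array, floored at 0.01 and put on the log2 scale. Probes called present or marginal on both arrays of a group were kept, with the brightest probe for each gene. Limma 3.58.1 in R 4.3.3 was fitted with 1 mean per group over all 12 arrays, with Benjamini-Hochberg adjustment over 11970 features and a threshold of 0.05. The script was tested on simulated data. With 2 animals a group, p-values rest on the spread between animals within groups. That spread is pooled over all 12 arrays and drawn by limma towards that of all features. It is not the spread of the compared groups alone.

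The members and lists were chosen with earlier results of these data known. Any member could be named. By rule, arrays are given for the 6 largest called members of a comparison and for Cdk1, Mcm2, Pcna and Top2a, and at most 4 other called cell cycle genes are named per comparison. Array values of further members were chosen after their values were seen. Alternatives changed the scaling, filter, floor, choice of probe, blocks and samples. Background correction by normexp used the median signal of the 10 arrays with scanner files.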

Additional observations from a re-analysis of the deposited data

Results flagged for a closer look

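For 6 members the DES 1 µg effect, relative to oil, was lower at 49 than at 35 days by limma's test of the difference between the effects. With Mcm6, 7 of 33 members passed it (21.2%), beside 20.8% of all features, 9.47% higher and 11.3% lower. That is the background share, so the count is not particular to the members. The change was -2.07 ± 0.49 for Ube2c (limma adjusted p = 0.026), -1.57 ± 0.22 for Pttg1 (0.0056), -1.17 ± 0.19 for Plk1 (0.0083), -1.03 ± 0.17 for Pcna (0.0095), -0.96 ± 0.26 for Ccne1 (0.035) and -0.54 ± 0.16 for Melk (0.044). The second Melk probe, detected in 5 groups, gave DES 1 µg minus oil as 0.43 at 49 days and 0.45 at 35 days, so it does not show this change. Plk1, Pcna and Pttg1 kept the call with each of the 8 arrays left out in turn. Melk lost it without any of the 8, and Ccne1 and Ube2c without 7 of them, with adjusted p up to 0.14.

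For 9 of 33 members (27.3%) the DES 100 µg effect was lower at 49 days by the same test. Of all features 9.85% passed, 4.59% higher and 5.26% lower. The change was -1.30 ± 0.22 for Pttg1 (limma adjusted p = 0.014), -1.25 ± 0.26 for Kif23 (0.026), -1.08 ± 0.19 for Plk1 (0.016), -1.07 ± 0.19 for Dlgap5 (0.018) and -1.01 ± 0.16 for Melk (0.011). It was -0.98 ± 0.17 for Pcna (limma adjusted p = 0.016), -0.96 ± 0.22 for Ccnb2 (0.035), -0.81 ± 0.16 for Cdk1 (0.024) and -0.77 ± 0.16 for Cks2 (0.026). The second Melk probe gave DES 100 µg minus oil as 0.05 at 49 days and 0.57 at 35 days. Only Melk kept its call with each of the 8 arrays left out, and the others reached adjusted p of 0.056 to 0.11. Both tests use the same 4 oil arrays, including those at 49 days that stood apart.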

How the results depend on the processing

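Over 74 named results and 1072 alternatives, 769 kept direction and call, 297 lost the call and 6 changed direction. Settings that change only the spread or the features tested cannot turn a direction. With the floor at the lowest detected signal, Mcm6 turned to -0.85 (DES 1 µg minus oil, 49 days), -1.43 (DES 100 µg minus oil, 49 days), 1.71 (oil, 49 minus 35 days) and -0.67 (change of the DES 1 µg effect), and Mcm3 to 1.03 (oil, 49 minus 35 days). With quantile normalization Cdk1 turned to -0.01 between the ages in oil.

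The 7 members called for DES 1 µg minus oil at 35 days were 11 under 75th percentile scaling or scaling to commonly detected probes, 2 with no detection filter, 3 without the oil arrays at 49 days, and 0 with scan day as a block or only the groups compared. All features called, 380 higher and 509 lower in the main fit, were 600 and 542, and 553 and 559, under those scalings. With no filter they were 315 and 423 of 18102, and without those oil arrays 285 and 374. With only the groups compared they were 69 and 85. For DES 100 µg minus oil at 35 days normexp gave 1. Over all features it called 72 higher and 106 lower, against 53 and 111 in the main fit. Between doses at 35 days, the 2 calls were 1 with no filter and 0 with the scan day block or only the groups compared. All features called, 499 higher and 466 lower, were 440 and 401 of 18102 with no filter. With only these groups they were 93 and 119. For DES 100 µg minus oil at 49 days, the 15 were 7 with only the groups compared. That fit called 618 features higher and 740 lower, against 1298 and 1707 in the main fit. Between doses at 49 days, the 6 were 10 under 75th percentile scaling or with probes detected in every group, 11 under quantile or commonly detected scaling, 12 with normexp, and 0 with the scan day block or only the groups compared. All features called, 437 higher and 386 lower, were 554 and 516 under 75th percentile scaling. With probes detected in every group they were 484 and 442 of 8977. Under quantile scaling they were 496 and 516, and under commonly detected scaling 547 and 534. With normexp they were 388 and 432, and with only these groups 56 and 48. For age with DES 1 µg, the 1 call was 0 with no filter, the scan day block, only the groups compared or without the oil arrays at 49 days. All features called, 406 higher and 95 lower, were 360 and 98 of 18102 with no filter. With only these groups they were 3 and 5, and without those oil arrays 241 and 81. For age with DES 100 µg, the 1 was 4 under the 3 scalings, 2 with probes detected in every group, 3 with normexp, and 0 with no filter, the mean of probes, the scan day block, only the groups compared or without the oil arrays at 49 days. All features called, 531 higher and 184 lower, were 445 and 293 under 75th percentile scaling. Under commonly detected and quantile scaling they were 420 and 319, and 438 and 285. With probes detected in every group they were 663 and 195 of 8977, and with normexp 301 and 227. With no filter they were 437 and 163 of 18102, and with the mean of probes 465 and 169. With only these groups they were 18 and 10, and without those oil arrays 358 and 141. Counts of 0 had 3 to 15 members at an unadjusted p under 0.05 by limma. The scan day block called 0 of all 11970 features in each comparison it covers, so its counts of 0 say nothing particular of the members.

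With each array left out in turn, counts ran from 1 to 3 and 5 to 6 for DES 1 µg minus oil at 35 and 49 days, 0 to 0 and 5 to 12 for DES 100 µg minus oil, 0 to 1 and 1 to 2 between doses, 7 to 11, 0 to 1 and 0 to 0 for age in oil, DES 1 µg and DES 100 µg, and 3 to 6 and 1 to 8 for the change of the DES 1 µg and DES 100 µg effects.

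For same-numbered replicates the labels give a number and no other link. Of 15 pairs of groups, 6 had a deviation correlation over 0.1 (-0.12 to 0.44). Whether the number marks a batch was not tested. With the replicate block, 10 members were called for DES 1 µg minus oil at 35 days, 10 at 49 days, 16 for DES 100 µg minus oil at 49 days, 9 between doses at 49 days and 17 for age in oil. Of 11970 features, the block called 467 higher and 664 lower for DES 1 µg at 35 days, against 380 and 509 without it. At 49 days it called 1821 and 2578, against 1519 and 2283, and for DES 100 µg 1565 and 1972, against 1298 and 1707. Between those doses it called 550 and 525, against 437 and 386, and for age in oil 3602 and 1912, against 3317 and 1656. The planned normexp on the mean signal was not run, and comparisons with oil at 49 days have no scan day or normexp value. Low signal limits what can be said of Mcm3 and Mcm6, in those oil arrays and in others. Mcm6 met the detection rule in 1 group, DES 1 µg at 49 days, and Mcm3 in 2 groups.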
